A study of Mus musculus with 8 samples.

Results

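The genes examined are 10 that surround the phosphatase CD45, measured by RNA sequencing of splenic B220+CD3+ cells that either had Eaf2 or lacked it. They were taken by gene symbol from the deposited expression table: the CD45 gene Ptprc, its partner Ptprcap, its splicing regulator Hnrnpll, the kinase Csk with its adaptor Pag1, the tyrosine phosphatases Ptpn2, Ptpn6, Ptpn22 and Ptpn7, and Ubash3a. All 10 were found among 17384 genes, and all 10 passed the filter on low counts that left 12340 genes for testing. Hnrnpll passed it only through the EAF2Faslpr libraries. The series held 8 RNA sequencing libraries, 4 titled EAF2Faslpr and 4 titled Faslpr, and the series text names the mice as Eaf2-/-Faslpr and Faslpr. Both groups therefore carry the lpr mutation of the death receptor gene Fas, and they differ by loss of Eaf2, whose product binds ELL proteins that help RNA polymerase II elongate. The sources used here give neither the age, number and strain of the mice nor the deleted part of Eaf2. Whether each library came from its own animal is not stated either, and p-values then describe how these samples vary, possibly for technical reasons alone.

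CD45 is a transmembrane tyrosine phosphatase of all nucleated blood cells. It removes the inhibitory phosphate that CSK places on the tail of SRC family kinases such as LCK, and thereby sets how readily a lymphocyte receptor can signal. The variable exons of Ptprc are kept in B cells and skipped in most mature T cells, a step promoted by the RNA-binding protein hnRNPLL. B220 is the CD45 form that keeps them, and T cells that accumulate in lpr mice are known for displaying it. The other phosphatases examined act downstream or beside CD45: SHP-1 (Ptpn6) on inhibitory receptors, PTPN22 together with CSK, TC-PTP (Ptpn2) on JAK and STAT proteins, and HePTP (Ptpn7) on MAP kinases.

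The sequences that define B220 are the variable exons, shown here because the sort was made on their product and because hnRNPLL binds CA-rich RNA. They are exons 4 to 6 of the coding transcript Ptprc-207 in GENCODE M21 (build GRCm38, minus strand) and are absent from transcript Ptprc-203. They lie at chr1:138122456-138122584, chr1:138120020-138120166 and chr1:138117754-138117894, hold 129, 147 and 141 bases, and together 417 bases. Capitals mark each CACA on the strand of the RNA.
Ptprc exon 4: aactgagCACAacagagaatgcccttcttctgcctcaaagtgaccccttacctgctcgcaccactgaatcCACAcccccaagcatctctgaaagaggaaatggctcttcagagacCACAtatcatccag
Ptprc exon 5: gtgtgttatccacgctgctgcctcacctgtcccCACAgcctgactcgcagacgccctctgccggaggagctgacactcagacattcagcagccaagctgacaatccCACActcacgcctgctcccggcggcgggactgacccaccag
Ptprc exon 6: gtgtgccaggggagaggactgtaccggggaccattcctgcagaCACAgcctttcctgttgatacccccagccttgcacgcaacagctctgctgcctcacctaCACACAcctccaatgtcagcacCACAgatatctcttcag
Exon 4 held 3 matches, exon 5 held 2 and exon 6 held 4, counting overlapping ones. CACA is common: 44.9%, 50.3% and 48.2% of the annotated exons of coding transcripts with those same lengths held at least 1. The matches describe the letters and are not binding sites shown by these data.

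Estimated reads per library ranged from 15.6 to 18.6 M (M, megareads). Levels are given as CPM, reads per megaread of the tested genes after scaling, and 3 reads were worth 0.161 to 0.193 CPM. Eaf2 was at 4.74 ± 1.05 CPM in EAF2Faslpr and 25.5 ± 4.50 CPM in Faslpr libraries (SD, n = 4 each), with a log2 fold change of −2.43 (adjusted p = 2.9e-05, edgeR quasi-likelihood test, Benjamini-Hochberg), in the direction of the labels. The T cell markers Cd3e and Cd3d, components of the sorted CD3 complex, were at 557 against 602 and 267 against 266 CPM. EAF2Faslpr replicate 3 stood apart with the highest summed B cell, macrophage and neutrophil markers, the latter at 122 CPM against 14.1 to 20.9 CPM in the other libraries, and Faslpr replicate 4 differed most from its own group.

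Of the 10 genes, 3 rose in EAF2Faslpr cells and 0 fell by edgeR, DESeq2 or limma-voom, with 1 (Csk) lower at an unadjusted p under 0.05. Hnrnpll rose 4.36-fold, Ptpn6 2.15-fold and Ubash3a 1.98-fold. Ptprc, Ptprcap, Csk, Pag1, Ptpn2, Ptpn22 and Ptpn7 did not pass at an adjusted p under 0.05. Over all genes tested, 7.14% were called higher and 4.96% lower, so 3 of 10 higher stands beside that background, and the median log2 fold change of the 10 genes was 0.10 against −0.01 over all genes tested. For 4 of the 10 genes the 2 groups' CPM ranges were separate, as they were for 17.7% of all genes tested. These were the 3 genes that rose and Csk. Hnrnpll, which is in both counts, was tested only because of its level in the EAF2Faslpr group, where it is high.

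**Figure D1:**
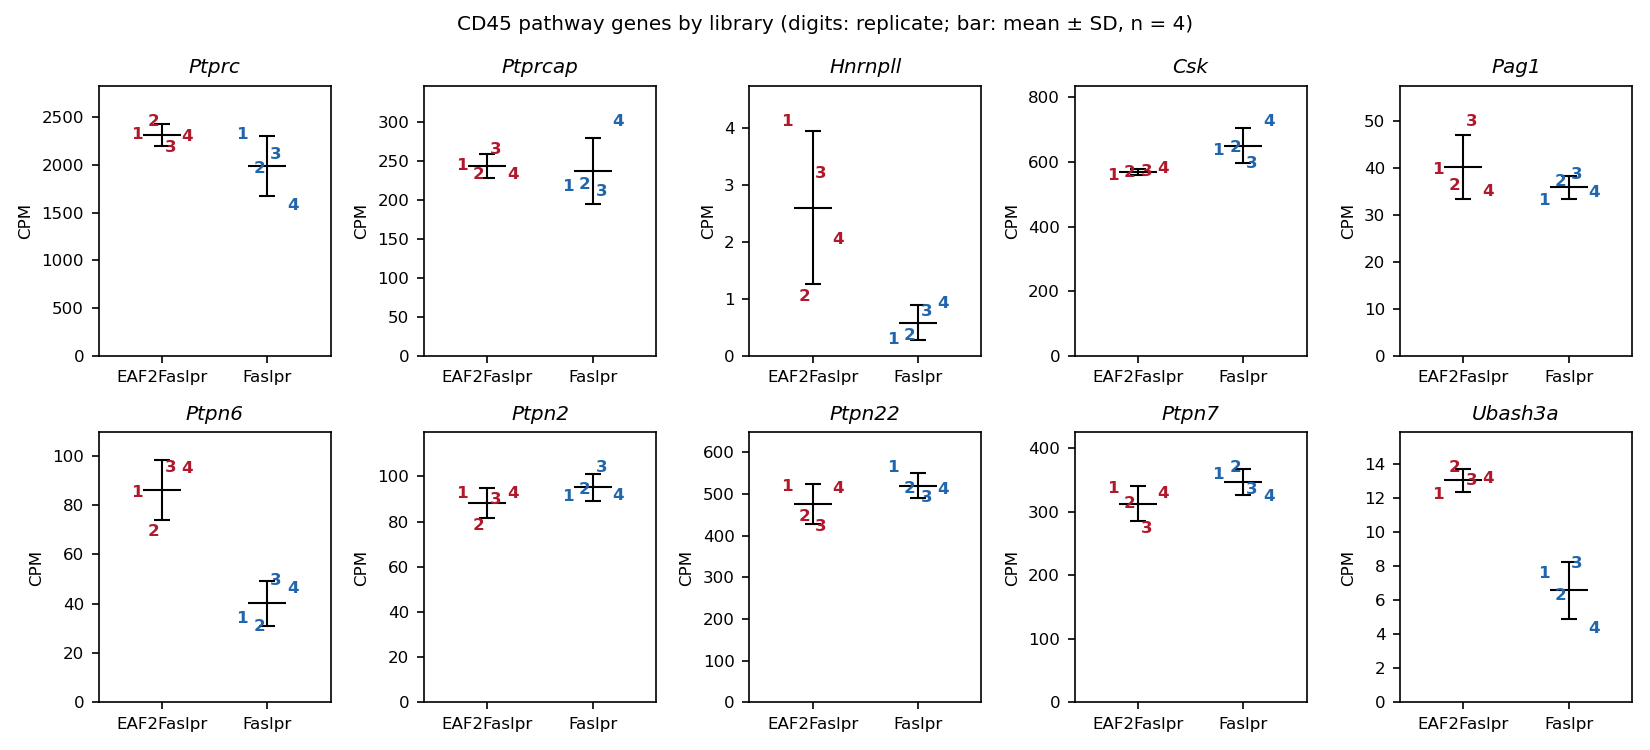
CPM of the 10 genes (vertical axes, each from 0) in EAF2Faslpr and Faslpr libraries (horizontal axis), with digits for the replicate and bars for mean ± SD (n = 4). Hnrnpll, Ptpn6 and Ubash3a are higher in every EAF2Faslpr library than in any Faslpr library, Csk is lower in every EAF2Faslpr library, and the other 6 genes overlap.

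Ptprc, the gene of CD45 itself, was measured at 2317, 2458, 2180 and 2294 CPM in EAF2Faslpr replicates 1 to 4 and at 2314, 1958, 2107 and 1578 CPM in Faslpr replicates 1 to 4. The EAF2Faslpr libraries lay close together, and Faslpr replicate 4 was the lowest of the 8. The log2 fold change was 0.22 (SE 0.11, 95% interval −0.02 to 0.46, adjusted p = 0.26 by edgeR), so a difference was not shown. Since cells of both groups were sorted for a Ptprc product, this level describes gated cells and not the tissue.

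Gene-level values do not show which exons of Ptprc were kept. The deposited counts, FPKM and TPM do imply a length for each gene in each library, because a value per length is a count divided by a length. RSEM, which the submitters' processing notes name, is known to report for a gene the mean length of its transcripts weighted by their estimated abundance. RSEM also reports a shorter effective length, corrected for fragment size. Which of these the deposited FPKM and TPM rest on was not tested. For Ptprc that implied length was 4983, 4985, 4923 and 4968 bases in EAF2Faslpr libraries and 4974, 4946, 4967 and 4905 bases in Faslpr libraries. The means differed by 16.5 bases (limma on log2 length, 95% interval −32.6 to 66.2 bases, adjusted p = 0.979), where the 3 variable exons hold 417 bases. The sources used here do not say which Ptprc transcripts the authors' annotation contained, so the implied length was not converted into a share of exon inclusion.

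Ptprcap encodes a small transmembrane protein that binds CD45 in lymphocytes. It was at 243, 232, 264 and 232 CPM in EAF2Faslpr libraries and at 217, 220, 211 and 300.4 CPM in Faslpr libraries. Faslpr replicate 4, the library with the least Ptprc, had the most Ptprcap. The log2 fold change was 0.03 (SE 0.11, 95% interval −0.22 to 0.29, adjusted p = 0.888 by edgeR).

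Hnrnpll, the factor that promotes skipping of the variable exons, changed most and was also the scarcest. With so few reads in Faslpr libraries, it passed the filter on low counts only through the EAF2Faslpr group, where it is high. It had 64, 19, 58 and 37 reads in EAF2Faslpr replicates 1 to 4 and 5, 6, 14 and 17 reads in Faslpr replicates 1 to 4, which is 4.11, 1.04, 3.20 and 2.04 CPM against 0.2865, 0.3575, 0.770 and 0.914 CPM. Every EAF2Faslpr library was above every Faslpr library, but EAF2Faslpr replicate 2 exceeded Faslpr replicate 4 by only 2 reads before scaling. The log2 fold change was 2.13 (SE 0.48, 95% interval 1.05 to 3.20, adjusted p = 0.0176 by edgeR), and the call was lost without Faslpr replicate 2 (log2 fold change 1.96, adjusted p = 0.0582).

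Other splicing factors were taken as a list, beside 7.14% higher and 4.96% lower over all genes tested. Of 26 hnRNP, SR and related splicing genes, all tested, 1 rose and 0 fell by edgeR, with a median log2 fold change of 0.02. At an unadjusted p under 0.05, 2 were lower, and DESeq2 called 1 lower and limma-voom 0. The gene that rose was Tra2a, an SR-like splicing regulator (249 ± 21.9 against 200.1 ± 18.6 CPM, adjusted p = 0.046 by edgeR). The fits that left out 1 library called between 0 and 2 genes of the list, and Tra2a had no call in those with 0, which left out EAF2Faslpr replicate 1, 3 or 4 or Faslpr replicate 1, 2 or 3. Hnrnpl, the close relative of Hnrnpll that also binds CD45 variable exons, was at 444 ± 9.42 against 463 ± 25.7 CPM (SD, n = 4 each). Hnrnpa2b1, the most abundant of the list, was at 1471 ± 78.8 against 1497 ± 85.1 CPM.

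Csk, the kinase that opposes CD45 on the SRC family tail tyrosine, was at 559, 569, 570.1 and 581 CPM in EAF2Faslpr libraries and at 636, 645, 596 and 726 CPM in Faslpr libraries. The groups did not overlap, and the EAF2Faslpr libraries differed among themselves by a coefficient of variation of 1.55% against 8.42% in Faslpr. The log2 fold change was −0.19 (SE 0.07, 95% interval −0.35 to −0.03), and it did not pass over all genes tested (unadjusted p = 0.0241, adjusted p = 0.125 by edgeR). PTPN22 is the phosphatase that partners with CSK and acts on the activating tyrosine of the same kinases. Ptpn22 was at 518, 447, 423 and 514 CPM against 563, 514, 491 and 511 CPM, with overlap between the groups and a log2 fold change of −0.13 (95% interval −0.32 to 0.06, adjusted p = 0.399 by edgeR).

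Pag1 encodes the membrane adaptor that brings CSK to lipid rafts, and it gave different answers by reads and per length. By reads it was at 39.8, 36.3, 49.9 and 34.9 CPM in EAF2Faslpr libraries and at 33.1, 37.1, 38.6 and 34.8 CPM in Faslpr libraries, with overlap and a log2 fold change of 0.16 (SE 0.12, adjusted p = 0.434 by edgeR). Per length, the authors' TPM (transcripts per megatranscript) was 5.13, 4.56, 7.05 and 4.76 against 2.54, 2.81, 3.30 and 2.52, with no overlap. On the log2(TPM + 1) scale the difference was 0.74 (SE 0.14, limma adjusted p = 0.00889), where 6.53% of all genes tested were called higher.

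Between these 2 readouts stands the length. The implied length of Pag1 was 17677, 18082, 15829 and 17083 bases in EAF2Faslpr libraries and 30268, 30326, 27786 and 29268 bases in Faslpr libraries. Every EAF2Faslpr value lay below every Faslpr value, and the means were 1.71-fold apart (log2 difference −0.78, SE 0.05, limma adjusted p = 0.00575). Of 11313 genes with a usable implied length, 0.292% were called in either direction and 0.159% were called shorter in EAF2Faslpr cells, and Pag1 was the only one of the 10 genes among them. The fit on length was chosen after the values were seen. Pag1 was called in all 8 fits made with 1 library fewer, with adjusted p up to 0.0372, and without both replicates numbered 4 the difference was of the same size but not called (log2 difference −0.78, adjusted p = 0.093). The longest Pag1 transcript in GENCODE M21 has 8256 bases, shorter than any of these lengths. The deposited table does not show which transcripts carried the reads.

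**Figure D2:**
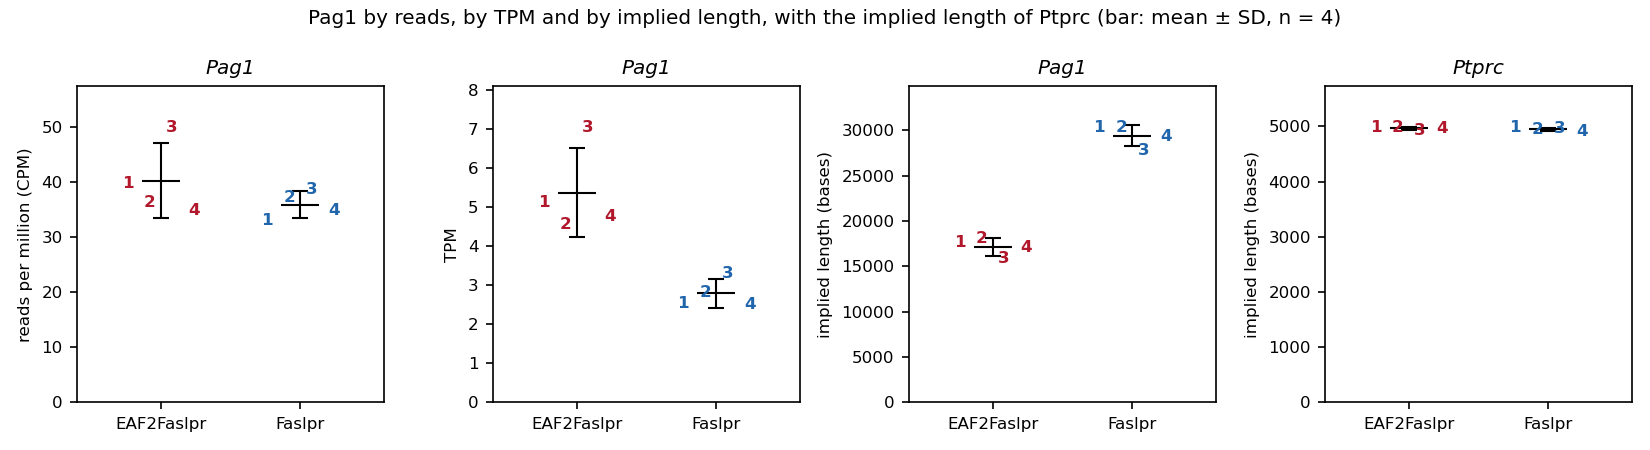
Pag1 as CPM, as the authors' TPM and as implied length in bases, and the implied length of Ptprc in bases (vertical axes from 0), for EAF2Faslpr and Faslpr libraries, with digits for the replicate and bars for mean ± SD (n = 4). Pag1 overlaps between groups by CPM and is apart by TPM and by implied length (15829 to 18082 against 27786 to 30326 bases), whereas the implied length of Ptprc lies between 4905 and 4985 bases in every library.

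Ptpn6 encodes SHP-1, the phosphatase that inhibitory receptors recruit to shut off nearby tyrosine kinases. It rose from 34.2, 30.9, 49.3 and 46.0 CPM in Faslpr replicates 1 to 4 to 85.1, 69.5, 95.2 and 94.7 CPM in EAF2Faslpr replicates 1 to 4. The lowest EAF2Faslpr library was well above the highest Faslpr library. The log2 fold change was 1.10 (SE 0.16, 95% interval 0.75 to 1.45, adjusted p = 0.00168 by edgeR), and all 8 fits that left out 1 library called it, with adjusted p up to 0.00697. Its implied length was 2170 bases in each of the 8 libraries, so reads and TPM gave the same fold, 2.15.

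Ubash3a encodes STS-2, a protein of the histidine phosphatase family that, with its relative STS-1, restrains T cell receptor signalling. It rose from 7.56, 6.32, 8.14 and 4.36 CPM in Faslpr libraries to 12.2, 13.8, 13.1 and 13.2 CPM in EAF2Faslpr libraries. The EAF2Faslpr values were tightly grouped, with a coefficient of variation of 5.07% against 25.4% in Faslpr, and Faslpr replicate 4 was the lowest. The log2 fold change was 0.99 (SE 0.18, 95% interval 0.59 to 1.39, adjusted p = 0.00573 by edgeR). All 8 fits that left out 1 library called it, with adjusted p up to 0.0217.

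The windows upstream of the genes that rose are shown for those that the promoter table holds. RefSeq start sites on build GRCm38.p6 were available for 6 of the 10 genes, and each window is the 250 bases before the start: chr6:124738710-124738959 on the minus strand for Ptpn6 and chr17:31207816-31208065 on the plus strand for Ubash3a. Capitals mark the ETS core GGAAG, which is the binding core of a transcription factor family prominent in blood cells, on either strand.
Ptpn6 upstream: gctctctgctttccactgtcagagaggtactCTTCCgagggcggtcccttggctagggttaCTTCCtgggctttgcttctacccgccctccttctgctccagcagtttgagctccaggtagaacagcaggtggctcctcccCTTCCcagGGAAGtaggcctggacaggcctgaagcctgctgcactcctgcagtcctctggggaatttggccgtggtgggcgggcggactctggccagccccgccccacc
Ubash3a upstream: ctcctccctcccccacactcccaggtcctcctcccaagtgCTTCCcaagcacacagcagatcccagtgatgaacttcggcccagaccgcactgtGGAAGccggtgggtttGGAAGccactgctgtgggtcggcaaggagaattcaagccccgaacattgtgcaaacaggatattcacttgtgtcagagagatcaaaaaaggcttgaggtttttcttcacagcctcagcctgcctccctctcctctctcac
The Ptpn6 window held 4 matches and the Ubash3a window 3, and 64.1% of all 32851 windows of this length held at least 1. The AP-1 motif TGANTCA, the RUNX core TGTGGT, the GATA motif AGATAA and the kappaB motif, searched on both strands, had 0 matches in either window, and were found in 6.75%, 14%, 9.99% and 7.25% of all windows. GGAAG overlapped none of the other motifs in these windows, since none of those matched.

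Ptpn2 and Ptpn7 act away from the receptor, on JAK and STAT proteins and on MAP kinases. Ptpn2 was at 92.5, 78.5, 89.7 and 92.4 CPM in EAF2Faslpr libraries and at 90.9, 94.0, 104 and 91.5 CPM in Faslpr libraries. The groups overlapped, with a log2 fold change of −0.11 by reads (95% interval −0.28 to 0.06, adjusted p = 0.444 by edgeR) and 0.08 by TPM (adjusted p = 0.517 by limma). Its implied length ranged from 2138 to 2231 bases in EAF2Faslpr and from 2169 to 2884 bases in Faslpr libraries, a difference that was not called (adjusted p = 0.665 by limma). Ptpn7 was at 336, 312, 274 and 328 CPM against 358, 369, 334 and 324 CPM, with a log2 fold change of −0.15 (95% interval −0.33 to 0.03, adjusted p = 0.293 by edgeR).

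**Figure D3:**
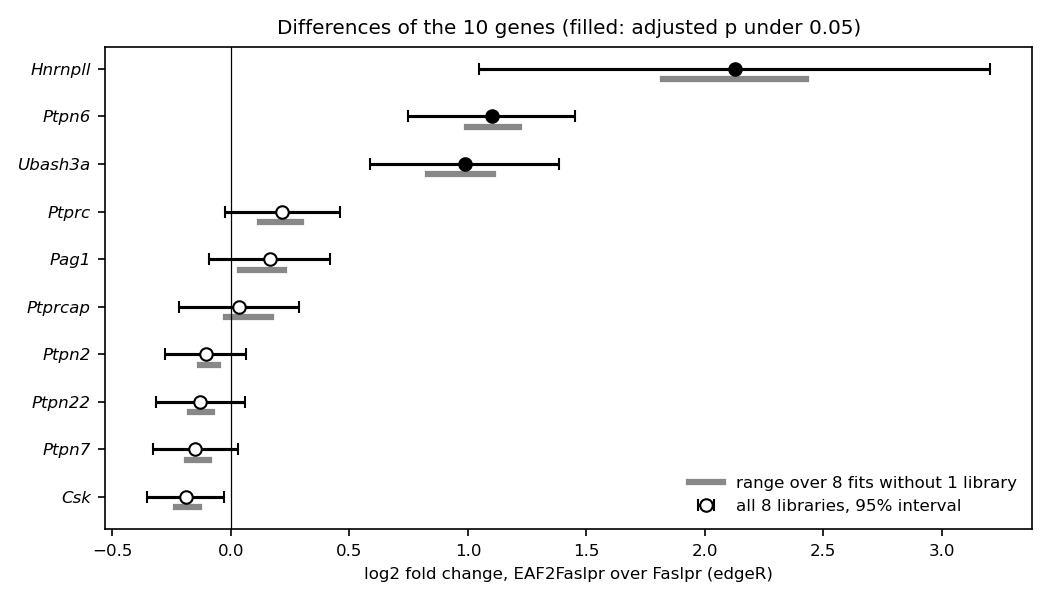
Log2 fold change of EAF2Faslpr over Faslpr (horizontal axis) for each of the 10 genes (vertical axis), as the edgeR estimate with its 95% interval over 8 libraries, and in grey the range of the 8 fits that left out 1 library each. Filled points passed at an adjusted p under 0.05: Hnrnpll at 2.13, Ptpn6 at 1.10 and Ubash3a at 0.99, with the other 7 between −0.19 and 0.22.

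Levels between genes were compared per length, as the authors' TPM. In Faslpr cells the order was Ptprc (920 ± 173 TPM), Ptprcap (673 ± 84.1), Csk (615 ± 29.5), Ptpn22 (423 ± 31.0), Ptpn7 (241 ± 21.9), Ptpn2 (86.8 ± 1.83), Ptpn6 (42.1 ± 9.40), Ubash3a (5.22 ± 1.52), Pag1 (2.79 ± 0.363) and Hnrnpll (0.438 ± 0.224). Ptprc overlapped with Ptprcap there, Ptprcap with Csk, and Ubash3a with Pag1. The place of Pag1 rests on its implied lengths of 15829 to 30326 bases, above the 8256 bases of its longest GENCODE M21 transcript. By CPM, which takes no account of length, Pag1 was above Ubash3a in Faslpr (35.9 against 6.6 CPM) and in EAF2Faslpr libraries (40.2 against 13.1 CPM). In EAF2Faslpr cells the order was the same, and Ptprc (1062 ± 54.4 TPM), Ptprcap (694 ± 34.8) and Csk (537 ± 11.2) lay apart from each other. There Ptpn6, at 90.5 ± 12.9 TPM, overlapped with Ptpn2, at 91.8 ± 5.91 TPM, whereas in Faslpr cells it lay below it in every library.

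**Figure D4:**
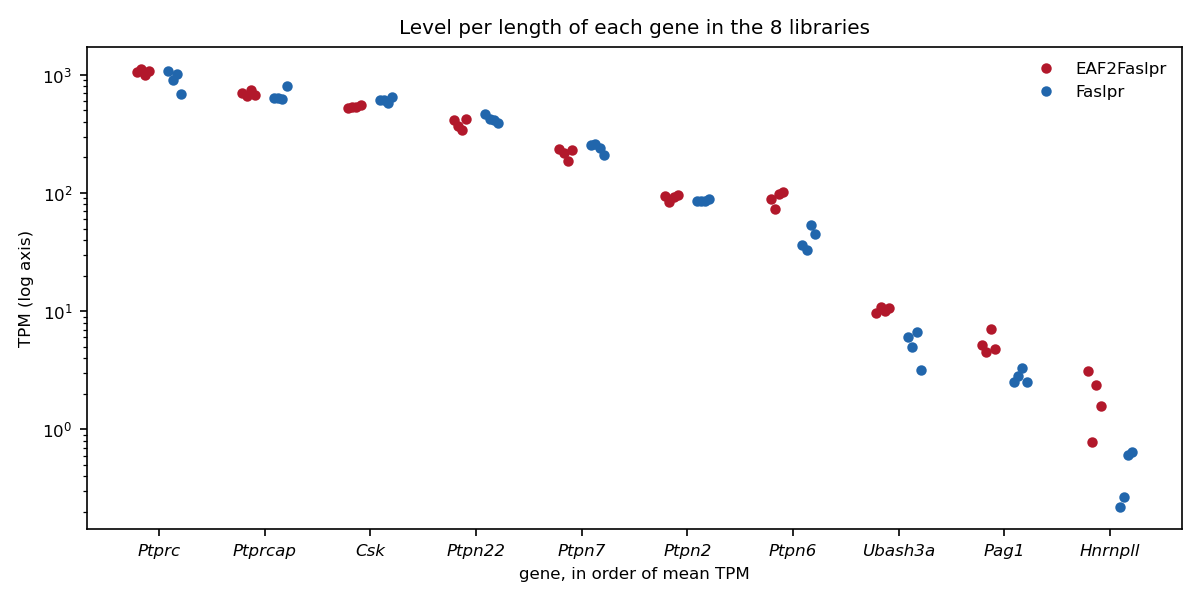
Level per length (authors' TPM, log axis) of the 10 genes, ordered by their mean over 8 libraries, with 1 point per library. Levels span from 0.22 TPM for Hnrnpll to 1121 TPM for Ptprc, and Ptpn6 sits beside Ptpn2 in EAF2Faslpr and below it in Faslpr libraries. The place of Pag1 depends on its implied length, which exceeds that of any GENCODE M21 Pag1 transcript.

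The SRC and SYK family kinases, on which CD45, CSK and these phosphatases act, were read as a list. It also held Matk, a kinase of the CSK family, which was not called. Over all genes tested, 7.14% were called higher and 4.96% lower. Of the 12 kinases listed 10 were tested, and 4 rose and 0 fell by edgeR, with a median log2 fold change of 0.19. At an unadjusted p under 0.05, 2 were lower, and DESeq2 called 1 lower and limma-voom 0. Those that rose included Blk (17.1 ± 4.73 against 3.96 ± 1.27 CPM), Syk (51.4 ± 11.7 against 18.2 ± 7.10 CPM) and Lyn (16.7 ± 6.28 against 4.95 ± 1.84 CPM), with adjusted p between 0.000679 and 0.00367 by edgeR. Blk, Syk and Lyn are known as kinases of B cell receptor signalling. Of the kinases known from T cell receptor signalling, Fyn, the most abundant of the list, was at 1115 ± 92.7 against 1285 ± 96.7 CPM (adjusted p = 0.157) and Lck, named after its values were seen, at 1136 ± 83.9 against 1156 ± 98.4 CPM (adjusted p = 0.891, both by edgeR). Zap70, also named after its values were seen, was lower in every EAF2Faslpr library than in any Faslpr library (328 ± 15.4 against 394 ± 37.6 CPM) and missed the threshold (log2 fold change −0.26, adjusted p = 0.0587 by edgeR).

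Receptors listed here as docking SHP-1 rose widely. Their docking of SHP-1 was not measured. All 13 of the list were tested, 10 rose and 1 fell, with a median log2 fold change of 1.24. Of all genes tested, 7.14% were called higher and 4.96% lower. Btla, an inhibitory receptor of B and T cells, rose from 86.0 ± 10.2 to 204 ± 23.1 CPM, the B cell receptor inhibitor Cd22 from 16.7 ± 5.26 to 66.9 ± 15.9 CPM, and the adhesion receptor Pecam1 from 61.7 ± 12.8 to 112 ± 5.41 CPM. Pdcd1, the gene of PD-1 and the most abundant of the list, fell from 179 ± 14.4 to 119 ± 7.88 CPM. The count was between 7 and 11 in the fits that left out 1 library. Several of these genes, Cd22 and Cd72 among them, are expressed by B cells, and Cd22 also stands in the B cell list. The part of RNA from B cells or from other cells in this count was not tested.

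Other tyrosine phosphatases were called about as often as genes at large. Of 35 other tyrosine phosphatases 33 were in the table and 23 tested, and 2 rose and 0 fell by edgeR, DESeq2 or limma-voom (1 lower at an unadjusted p under 0.05), which is 8.7% higher against 7.14% of all genes tested. They were Ptpn12, a phosphatase of cytoskeletal adaptors (34.0 ± 2.81 against 24.9 ± 3.48 CPM), and the receptor phosphatase Ptprs (89.3 ± 15.3 against 65.0 ± 4.96 CPM), with adjusted p of 0.0242 and 0.0284 by edgeR. The fits that left out 1 library called between 0 and 4 of this list higher, 0 of them without EAF2Faslpr replicate 4 or without Faslpr replicate 2. Ptprk, its most abundant member, was at 506 ± 123 against 457 ± 63.8 CPM.

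Of 14 adaptors of CSK and tyrosine phosphatases, all tested, 0 rose and 2 fell by edgeR, where 4.96% of all genes tested were called lower, with 1 higher at an unadjusted p under 0.05, 1 by DESeq2 and 0 by limma-voom. Sla2, an adaptor that lowers antigen receptor levels, fell 4.03-fold (4.05 ± 0.290 against 16.4 ± 4.75 CPM, adjusted p = 0.000395 by edgeR), and Dok3, an adaptor of inhibitory signalling, fell 1.36-fold (81.4 ± 7.24 against 111 ± 7.96 CPM, adjusted p = 0.00602 by edgeR). Cbl, a ubiquitin ligase and the most abundant of the list, was at 807 ± 73.5 against 832 ± 111 CPM. Among 13 JAK, STAT and MAP kinase genes, which include known substrates of TC-PTP and HePTP, 3 rose and 0 fell by edgeR, with 2 lower at an unadjusted p under 0.05, 2 by DESeq2 and 0 by limma-voom. Of all genes tested, 7.14% were called higher. Stat4, which carries IL-12 signals, rose 3.08-fold (51.2 ± 8.83 against 16.6 ± 3.29 CPM), Jak3 2.34-fold (351 ± 69.6 against 150 ± 67.7 CPM) and Stat5b 1.25-fold (257 ± 22.2 against 206 ± 14.8 CPM), with 1 of the list called without Faslpr replicate 1. Jak1, the most abundant, was at 962 ± 93.6 against 1014 ± 65.9 CPM.

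The EAF2Faslpr libraries, in which B cell markers rose, were also those with higher Hnrnpll, Ptpn6, Ubash3a and B cell kinases. Most receptors listed as docking SHP-1 were higher there too, so these differences share the same split by group. Of 20 B cell markers 16 were in the table, all were tested and all 16 rose, beside 7.14% of all genes tested, with a median log2 fold change of 2.06 for the markers. Their summed level was between 558 and 981 CPM in EAF2Faslpr and between 223 and 310 CPM in Faslpr libraries, with Cd37 as the most abundant (177 ± 22.3 against 132 ± 10.4 CPM), and no marker had 0 reads in all libraries. Ms4a1 (42.8 ± 14.8 against 9.58 ± 3.18 CPM) and Cd79a (59.7 ± 26.8 against 12.6 ± 3.58 CPM), B cell markers not used in the sort, were present in both groups. In bulk samples a change in the number of cells of a type and a change in RNA per cell cannot be told apart, and the part of B cell RNA in these results was not tested. When EAF2Faslpr replicate 3, which had the highest B cell marker sum, was left out, the log2 fold change was 1.05 for Ptpn6 and 0.99 for Ubash3a, and both were called, as was Hnrnpll at 2.004 (adjusted p = 0.0493 by edgeR). EAF2Faslpr replicates 1, 2 and 4 still had sums of 558, 610.5 and 584 CPM, above every Faslpr library, so the part of B cell RNA was not tested by this fit either.

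**Figure D5:**
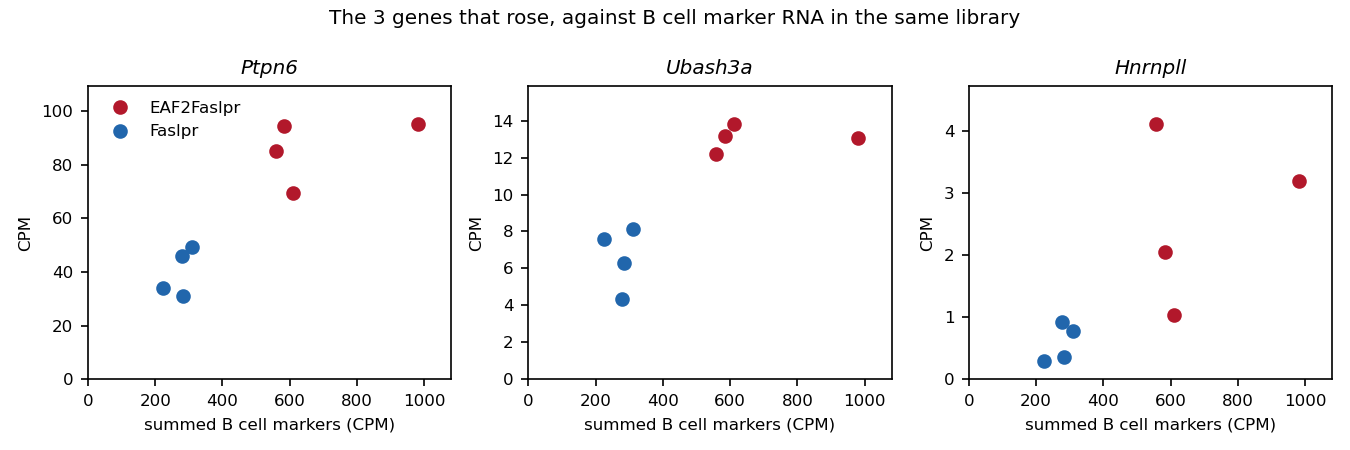
CPM of Ptpn6, Ubash3a and Hnrnpll (vertical axes) against the summed CPM of 16 B cell markers (horizontal axes, from 0), with 1 point per library. The 4 EAF2Faslpr libraries lie higher on both axes than the 4 Faslpr libraries, and EAF2Faslpr replicate 3, at 981 CPM of B cell markers, has Ptpn6 and Ubash3a levels of 95.2 and 13.1 CPM. The highest Ubash3a level is that of replicate 2, at 13.8 CPM, and the highest Ptpn6 level that of replicate 3, beside 94.7 CPM in replicate 4. Hnrnpll is at 4.11, 1.04, 3.20 and 2.04 CPM in EAF2Faslpr replicates 1 to 4, where the marker sums are 558, 610.5, 981 and 584 CPM.

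Markers of other cells moved less evenly, and their counts stand beside 7.14% higher and 4.96% lower over all genes tested. Of 9 MHC class II genes 7 rose (summed 590 to 1033 against 262 to 428 CPM), of 10 tested macrophage markers 2 rose (67.9 to 163 against 55.5 to 69.0 CPM) and of 6 tested natural killer markers 2 rose (1440 to 1679 against 1654 to 1981 CPM, mostly Eomes). By edgeR 0 of 6 neutrophil markers passed, with 5 higher at an unadjusted p under 0.05, 1 by DESeq2 and 0 by limma-voom. Of 5 erythroid and platelet markers 0 passed by these tools or without adjustment, and of 7 antibody-secreting cell markers 1 fell. Of 10 tested T cell markers 2 rose and 0 fell, and their sum was between 2556 and 2764 against 2379 and 2546 CPM. When 1 library was left out, 4 neutrophil markers rose without EAF2Faslpr replicate 2 and 3 without EAF2Faslpr replicate 1. In such fits 0 natural killer markers rose without Faslpr replicate 2 and 1 without EAF2Faslpr replicate 3 or Faslpr replicate 1, 1 macrophage marker rose without Faslpr replicate 1, 2 or 4, 4 T cell markers rose without Faslpr replicate 4, and 2 antibody-secreting cell markers fell without EAF2Faslpr replicate 1 or Faslpr replicate 3. The part of these cells in the values of the 10 genes was not tested.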

How the data were processed

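Libraries were grouped by their titles. The authors deposited estimated counts (fractional, not scaled to depth), TPM and FPKM per gene and library, per the file headers. RSEM 1.3.1, Bowtie2 2.4.5, HISAT2 2.2.1 and the build GRCm39 are named, without roles, in the submitters' processing notes. Annotation and strandedness are not stated there, and reads shared by overlapping or near-identical genes are divided by estimate. A further 8 per-sample columns were not used. Of the deposited estimated counts, 36.8% were whole within 0.001.

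Estimated counts were rounded, filtered with filterByExpr, scaled with TMM factors and tested with edgeR 4.0.16 (R 4.3.3) over all 8 libraries, with Benjamini-Hochberg adjustment over the 12340 genes and a threshold of 0.05. Log2 fold changes are EAF2Faslpr over Faslpr, SE is the change divided by the square root of F, and 95% intervals are unadjusted. The deposited TPM values were tested with limma 3.58.1 after adding 1 and taking log2. Implied length was the count divided by the level per length, for genes with a mean TPM of at least 1 and no 0. DESeq2 1.42.0 was an alternative. The scripts were tested on simulated data.

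No pair of replicates agreed within sampling noise (chi-square per degree of freedom from 9.46 to 36.7). The 10 genes and all gene lists were chosen with earlier results of these data known. Named genes were the 10 genes, Eaf2 and the most abundant gene of each list. Up to 4 passing genes of each pathway list were also named, by smallest p. Cd3e and Cd3d, of the sorted CD3 complex, were named too, as were the B cell markers Ms4a1 and Cd79a, which were not used in the sort. Lck, Zap70, Matk, Hnrnpl and Cd72 were named after their values were seen. Some genes of these lists are counted but not reported here by name.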

Additional observations from a re-analysis of the deposited data

Results flagged for a closer look

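Faslpr replicate 4 lay far from the other Faslpr libraries for Ptprcap, at 300.4 CPM against 211 to 220 CPM and at 799 TPM against 627 to 634 TPM. The same library had the shortest implied length of Csk, 2356 bases against 2417 to 2429 bases. A gap of this kind is expected by chance in about 1 in 20 groups of 4 libraries. Up to 60 such groups were considered, and those with a range under 2% of their mean were passed over. All 3 values come from the same library, and CPM and TPM of Ptprcap rest on the same reads, so they are not independent. Whether they exceed the chance rate was not tested.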

How the results depend on the processing

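Ptpn6, Ubash3a and Eaf2 were called in all 16 alternative settings, Hnrnpll in 15 and Csk, Ptprc, Ptprcap, Ptpn2, Ptpn22 and Ptpn7 in 0. Pag1 was called only by limma on log2(TPM + 1), at 0.74. Ptpn2, at −0.11 by edgeR, changed sign to 0.0786 in that setting, and Ptprcap ranged from −0.0193 to 0.17 when 1 library was left out; neither was called. The count of genes changed, 1493, ranged from 990 without Faslpr replicate 2 to 1599 without Faslpr replicate 3 when 1 library was left out, and was 1898 with DESeq2. With a replicate block 1425 genes and the same number of the 10 genes, 3, were called, and 1 of the other tyrosine phosphatases rose against 2. Same-numbered deviations correlated at 0.128, 0.168, 0.0639 and −0.0501, so the numbers were not taken to pair libraries. Counts of the lists also moved. With DESeq2, 1 kinase fell, 1 adaptor rose and 4 fell, 2 splicing genes rose and 1 fell, and 2 JAK, STAT and MAP kinase genes fell. With upper-quartile factors 1 JAK, STAT and MAP kinase gene fell, and with no filter 1 did and 0 splicing genes rose. By limma on log2(TPM + 1), 0 other tyrosine phosphatases rose, 1 kinase fell and 1 JAK, STAT and MAP kinase gene fell. Without both libraries numbered 4, a setting chosen after seeing the data, 0 other tyrosine phosphatases and 0 splicing genes rose, 1 adaptor rose, 1 JAK, STAT and MAP kinase gene rose and 1 fell, and the implied length of Pag1 differed by −0.78 without a call. Leaving out 1 library gave 0 to 4 other tyrosine phosphatases higher, 0 to 1 kinases lower, 0 to 1 adaptors higher, 0 to 2 splicing genes higher, and 1 to 3 JAK, STAT and MAP kinase genes higher and 0 to 1 lower. Among marker lists, DESeq2 gave 4 T cell and 1 neutrophil marker higher and 2 antibody-secreting cell markers lower, the replicate block gave 1 neutrophil and 1 natural killer marker higher, and limma-voom 1 natural killer marker. DESeq2, limma-voom, limma on log2(TPM + 1) and the fit without both libraries numbered 4 each gave 1 macrophage marker higher. The causes were not tested. The few reads of Hnrnpll, 5 to 64 per library, limit the precision of its fold.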
